A study of Mus musculus with 26 samples.

Results

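Voltage-gated calcium channels, voltage-gated sodium channels and HCN channels (hyperpolarization-activated, cyclic nucleotide-gated cation channels) were described in RNA enriched for ribosome-bound RNA of GnRH neurons. These are the hypothalamic cells that release gonadotropin-releasing hormone. Members were all rows of the count table whose gene symbol follows the naming pattern of these families, so the choice used symbols and no measured value. The rule gave 43 of 23107 genes: 10 pore-forming Cav subunits (Cacna1), 4 Cav beta subunits (Cacnb), 4 alpha2-delta subunits (Cacna2d), 8 gamma subunits or TARPs (Cacng), 9 pore-forming Nav subunits, 4 Nav beta subunits and 4 HCN channels. A sodium channel of the brain that the table lists under the older symbol Scn2a1 falls outside the pattern and is given with the partner genes.

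Mice came from a cross of a homozygous GnRH Cre parent with a homozygous floxed-stop L10a-GFP parent, so every mouse in every group carried both alleles, and the tag on ribosomal protein L10a follows the activity of this Cre. Preoptic area punches of 5 to 7 mice aged 55 to 165 days were pooled, and tagged ribosomes were pulled down. Each of 13 pools gave an immunoprecipitate and the supernatant left behind, 26 libraries in all. Of the pools, 3 were of intact females in diestrus, 3 of ovariectomized females, 4 of intact males and 3 of orchidectomized males. The pools are labelled as biological replicates numbered 0 to 3, and p-values measure the spread between pools.

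Total counts per library ran from 27217253 to 56668582. Gnrh1, the check of the pull-down, had a median of 7410 CPM (the count relative to a library size adjusted by TMM) in the immunoprecipitates, from 3170 to 20900. In the supernatants its median was 99.5 CPM, and the highest value, 1580 CPM, was in intact female replicate 2. It was higher in the immunoprecipitate in 13 of 13 pools, by 5.58 ± 0.51 on the log2 scale (SE), so the labels of the fractions held in every pool. Of 8 oligodendrocyte markers all 8 were lower in the immunoprecipitate, with summed levels of 909 to 1440 CPM against 1540 to 2350 CPM in the supernatants. Of 7 astrocyte markers 5 were lower, but their sum reached 1890 CPM in the immunoprecipitate of gonadectomized male replicate 0 against a median of 399 CPM. Of 7 endothelial and mural markers 3 were higher, Cldn5 (1.34), Flt1 (1.19) and Abcb1a (1.97), and 1 was lower. Their sum reached 215 CPM in the same library, against a median of 44.3 CPM over the immunoprecipitates and 45.9 CPM over the supernatants. Of 4 markers of oligodendrocyte precursors 1, Cspg4 (1.41), was higher and 2 were lower, and of 6 microglia markers 4 were lower. Of 7 tested markers of neurons in general 1 was higher and 4 were lower, with sums of 4580 to 5970 CPM against 4440 to 5760 CPM. Of 3 markers of GABA neurons 0 were higher and 2 lower, and the 1 marker of glutamate neurons was higher. Libraries numbered 1 to 10 in the labels hold 4 intact pools and those numbered 11 to 30 the other 9, so the numbering is partly tied to gonadal state.

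Cav channels let calcium into a depolarized cell and couple firing to transmitter and hormone release, with the beta and alpha2-delta subunits setting how many channels reach the membrane. Nav channels carry the upstroke of the action potential, and their beta subunits shape gating and act in cell adhesion. HCN channels open when the membrane is hyperpolarized and are known for their part in rhythmic firing, a property studied in GnRH neurons because hormone release is pulsatile. Several gamma subunits are better known as TARPs, which traffic AMPA-type glutamate receptors.

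To show the start regions of members on which the results turn, RefSeq promoter entries were matched for 31 of the 43 genes. Printed are the 250 bases before the RefSeq start (build GRCm38.p6) of Hcn2, the most abundant HCN member, of Cacna1b, the one pore-forming Cav subunit that passed, and of Scn11a, the member with the largest positive log2 fold change. Capitals mark the GC box GGGCGG on either strand. The windows are chr10:79716384-79716633 on the plus strand for Hcn2, chr2:24763153-24763402 on the minus strand for Cacna1b and chr9:119825457-119825706 on the minus strand for Scn11a.
Hcn2: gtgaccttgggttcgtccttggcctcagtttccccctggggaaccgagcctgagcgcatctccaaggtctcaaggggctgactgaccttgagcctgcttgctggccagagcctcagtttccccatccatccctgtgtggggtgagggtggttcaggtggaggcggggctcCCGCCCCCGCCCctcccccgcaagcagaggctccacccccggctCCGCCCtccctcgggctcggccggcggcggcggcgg
Cacna1b: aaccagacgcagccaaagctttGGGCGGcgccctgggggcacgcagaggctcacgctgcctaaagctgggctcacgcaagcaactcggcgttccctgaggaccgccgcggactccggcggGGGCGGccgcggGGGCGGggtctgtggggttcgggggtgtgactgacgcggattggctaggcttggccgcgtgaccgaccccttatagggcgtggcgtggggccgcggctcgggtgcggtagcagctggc
Scn11a: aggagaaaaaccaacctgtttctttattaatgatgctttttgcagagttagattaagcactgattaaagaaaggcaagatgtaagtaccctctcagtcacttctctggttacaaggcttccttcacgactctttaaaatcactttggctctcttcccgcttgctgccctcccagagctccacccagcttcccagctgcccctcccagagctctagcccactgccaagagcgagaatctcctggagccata

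The Hcn2 window is 70.4% G and C and holds 3 GC boxes, of which 2 follow each other directly with no overlap of letters. The Cacna1b window is 72.0% G and C and also holds 3. The Scn11a window is 48.0% G and C with no GC box, against a median of 52.4% over 32851 promoters. Among the 41 promoters of members a GC box was found in 17 (41.5%), against 32.7% of all promoters. The E box CACGTG and the cAMP response element TGACGTCA, searched on both strands, were in 0 of the 41, against 6.02% and 1.55% of all promoters. These letter matches are a description of the windows, and binding was not measured.

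The first comparison asked which channel genes were enriched or depleted in the immunoprecipitate against the supernatant. The oligodendrocyte markers still had a median sum of 1070 CPM in the immunoprecipitates, against 1810 CPM in the supernatants. A level or share in the immunoprecipitates is therefore not that of GnRH neurons alone. Over all conditions 2 channel genes were higher in the immunoprecipitate, Scn11a and Scn3b, and 16 were lower. Among the lower genes were Cacna1b, Cacnb1, Cacnb3, Cacna2d1, Cacna2d2, Cacna2d3, Cacng2, Cacng3, Cacng4, Cacng7, Scn1a, Scn10a, Scn2b and Hcn2. Calls are adjusted p under 0.05 in edgeR's two-sided quasi-likelihood test with Benjamini-Hochberg adjustment over 16713 genes, and adjusted p-values are of this test where no tool is named. Of the members, 41 were tested, so 4.88% were higher and 39.0% lower. Of all tested genes 21.3% were higher and 21.6% lower. With the pool as a block 3 members were higher and 20 lower, where Cacng5 passed as higher and Cacna1e, Cacna1h, Cacnb4 and Scn3a as lower. The median log2 fold change was -0.26 over the tested members and -0.06 over all tested genes. In bulk RNA, fewer cells of a type and less RNA per cell cannot be told apart.

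**Figure D1:**
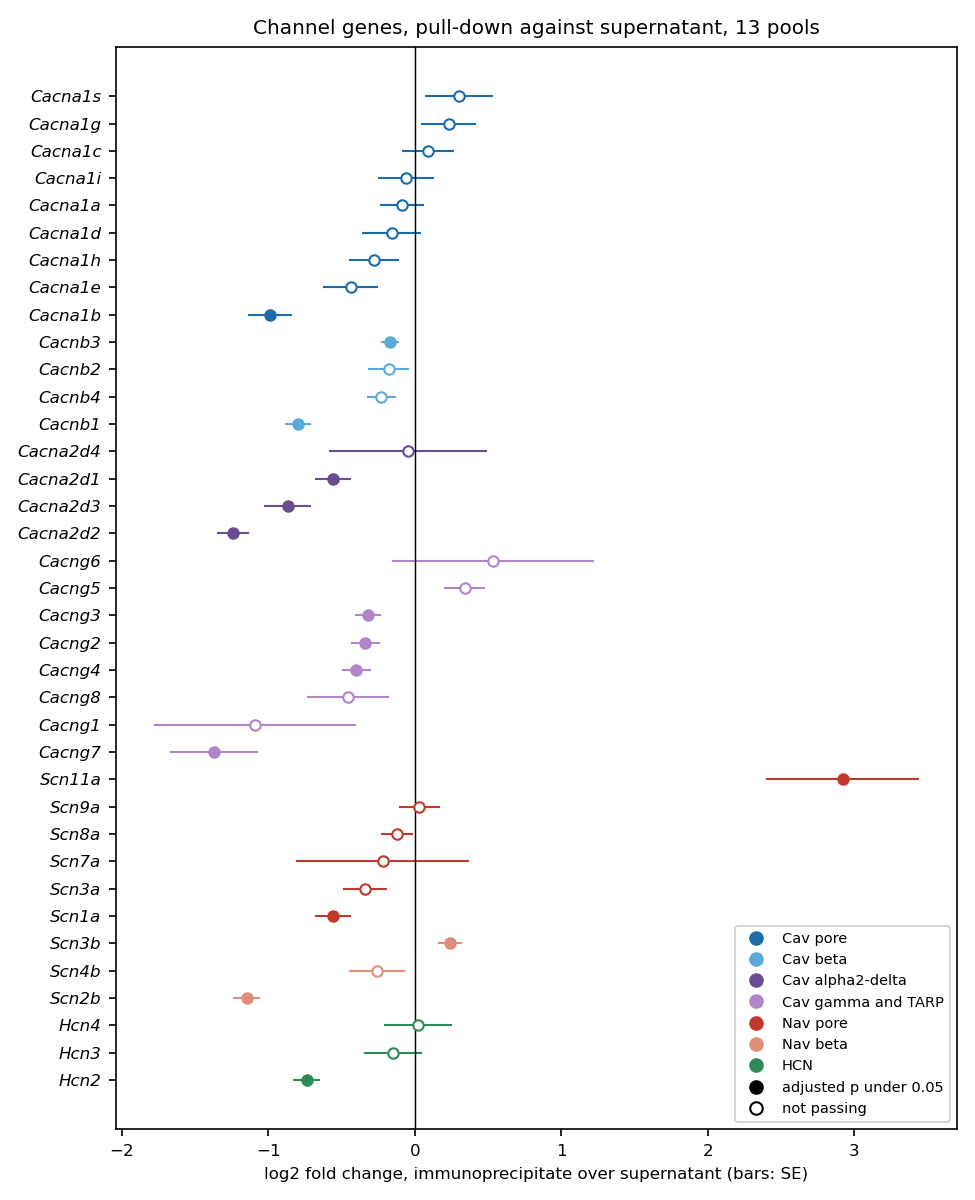
Log2 fold change of the immunoprecipitate over the supernatant (x axis, bars are the SE) for tested channel genes, grouped by subfamily, with filled points for adjusted p under 0.05. Scn10a is left out because whole groups of its libraries are at 0; Scn11a lies at 2.92 and Cacng7 at -1.37.

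Untested were Cacna1f, a calcium channel known from the retina, whose highest level was 0.300 CPM, and Scn4a, the skeletal muscle sodium channel, at 0.107 CPM. Scn4a had no count in any of the 13 immunoprecipitates and was detected in 3 supernatants.

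Of 9 tested pore-forming Cav genes 1 was lower in the immunoprecipitate and 0 were higher. Cacna1b forms the N-type channel, which triggers transmitter release at many synapses, and lies at chr2:24603887-24763152. It ranged from 6.19 to 17 CPM in the immunoprecipitates, with a median of 12.2, and from 11.2 to 36.3 CPM in the supernatants, with a median of 23.1. The groups overlapped, and 1 of 13 pools had the higher value in its immunoprecipitate. Its log2 fold change was -0.99 ± 0.15 (adjusted p = 1.63e-05), with -1.71 in libraries numbered 1 to 10 alone and -0.58 in those numbered 11 to 30, and it passed in both. The most abundant pore gene per length was Cacna1a, the P/Q-type channel of presynaptic terminals, at 2.78 ± 1.00 CPM per kb (SD, n = 13) in the immunoprecipitates and 2.92 ± 0.874 in the supernatants. Its log2 fold change was -0.09 ± 0.15 and did not pass. The L-type channels Cacna1c and Cacna1d had log2 fold changes of 0.09 and -0.16, and the R-type channel Cacna1e -0.44 (adjusted p = 0.064). The T-type channels, which open at low voltage and are known from burst firing, had values of 0.23 for Cacna1g, -0.28 for Cacna1h and -0.06 for Cacna1i, and none passed. Cacna1s, best known from skeletal muscle, had 0.30, and 1212 bases of its exons overlap another gene in the annotation, so its reads are uncertain in a library without strand. The same holds for Cacna1d, with 587 bases that overlap Chdh.

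The pore genes were also read as shares of their subfamily's summed level per kb, a ratio within each library that does not depend on its scaling. Cacna1b made up 10.5 ± 3.07% of the pore Cav level in the immunoprecipitates (SD, n = 13) and 17.6 ± 2.70% in the supernatants, and its share was higher in the immunoprecipitate in 1 pool. Cacna1g took 14.9% against 11.4%, higher in 10 pools, and Cacna1s 5.29% against 3.6%, higher in 12. The summed pore Cav level was 11.9 ± 2.37 CPM per kb against 13.6 ± 3.34. A share of 1 member moves with those of the others, and the shares were not tested.

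Among the alpha2-delta subunits, the binding site of gabapentin-type drugs in the case of Cacna2d1 and Cacna2d2, 3 of 4 were lower in the immunoprecipitate and 0 higher. Cacna2d2 ranged from 12.9 to 30.2 CPM in the immunoprecipitates, with a median of 20.4, and from 34.7 to 65.3 CPM in the supernatants, with a median of 50.6. No immunoprecipitate reached any supernatant. The difference of -1.24 ± 0.11 on the log2 scale (adjusted p = 3.24e-09) is a 2.36-fold lower level. Cacna2d3 had a median of 18.7 CPM, from 12.1 to 38.7, against 44.2, from 20.3 to 52.7. It was lower in 13 of 13 pools although the groups overlapped (-0.87 ± 0.16, adjusted p = 0.000108). In libraries numbered 11 to 30 alone its value was -0.52 and did not pass (adjusted p = 0.0515). Cacna2d1 had a median of 14.4 CPM, from 10.2 to 26.7, against 22.8, from 15.2 to 31.9, and was also lower in all 13 pools (-0.56 ± 0.12, adjusted p = 0.00063). With the trend over transcript length removed Cacna2d1 was at -0.30 (adjusted p = 0.045).

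Cacna2d4, known from photoreceptors, had -0.05 and did not pass. Cacna2d3 was the most abundant alpha2-delta gene per length in both fractions, at 5.52 ± 2.23 CPM per kb against 10.2 ± 2.83. The summed alpha2-delta level was lower in the immunoprecipitate in 13 of 13 pools, 11.3 ± 2.66 against 21.8 ± 4.77 CPM per kb. Within that sum Cacna2d1 took 16.9% against 12.9%, higher in 12 pools, while the share of Cacna2d2 was 31.6% against 38.7%.

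Of the 4 cytoplasmic Cav beta subunits 2 were lower. Cacnb1, at chr11:98001508-98023034, ranged from 38.8 to 84.1 CPM in the immunoprecipitates, with a median of 59.0, and from 86.0 to 119 CPM in the supernatants, with a median of 97.5. The highest immunoprecipitate lay just under the lowest supernatant, and the log2 fold change was -0.80 ± 0.09 (adjusted p = 2.66e-07). Cacnb3 was the most abundant beta gene per length, at 55.3 ± 6.56 against 61.8 ± 6.09 CPM per kb. It had a median of 163 CPM, from 138 to 201, against 180, from 164 to 233. Its small difference of -0.17 ± 0.06 (adjusted p = 0.0288) was lost with DESeq2 size factors, with the length trend removed and in 6 of 26 fits that each left out 1 library. Its value was 0.06 in libraries numbered 1 to 10 alone.

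Cacnb2 had -0.18 and Cacnb4 -0.23 (adjusted p = 0.0767), and neither passed. Exons of Cacnb4 overlap another gene by 1170 bases. The share of Cacnb1 in the beta level was 15.8% against 22.2%, lower in all 13 pools, and that of Cacnb3 was 61.1% against 55.9%, higher in 11 pools.

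Of the 8 gamma subunits and TARPs 4 were lower and 0 higher. Cacng2, Cacng3 and Cacng4, TARPs of AMPA receptors in the brain, were lower by similar small amounts. Cacng3 had a median of 43.1 CPM, from 30.4 to 59.6, against 53.1, from 46.0 to 65.6, and was lower in 13 of 13 pools (-0.32 ± 0.09, adjusted p = 0.00512). It was the most abundant of the subfamily per length, at 15.7 ± 2.73 against 19.5 ± 2.12 CPM per kb. Cacng2 had a median of 25.1 CPM, from 19.8 to 39.4, against 31.9, from 27.8 to 45.9 (-0.34 ± 0.10, adjusted p = 0.00712). Cacng4 had a median of 25.4 CPM, from 21.7 to 39.8, against 35.8, from 29.8 to 45.9 (-0.40 ± 0.10, adjusted p = 0.00183). The fractions overlapped for each of these 3 genes. In libraries numbered 11 to 30 alone Cacng2 and Cacng4 did not pass, at -0.20 and -0.21, and in libraries numbered 1 to 10 Cacng3 did not pass, at -0.24. With the length trend removed Cacng2 was at -0.12 and did not pass.

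Cacng7, a TARP of low level here, had a median of 0.715 CPM, from 0.270 to 1.88, against 2.04, from 1.5 to 2.69 (-1.37 ± 0.30, adjusted p = 0.000679). In 1 of 13 pools it was higher in the immunoprecipitate, and in libraries numbered 1 to 10 alone it did not pass, at -0.92. Cacng5 went the other way without passing: its median was 36.9 CPM against 29.4 and it was higher in 11 of 13 pools (0.34 ± 0.14, adjusted p = 0.0534). It passed in 6 of 9 alternative settings, but in libraries numbered 1 to 10 its value was 0.00. Its share of the subfamily's level was 23.1% against 15.6%, higher in 12 pools. Cacng1, Cacng6 and Cacng8 did not pass, and Cacng1 and Cacng6 were undetected in 5 and 4 of 13 immunoprecipitates.

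Of the Nav beta subunits, Scn2b, at chr9:45117782-45130070, ranged from 22.3 to 41.6 CPM, with a median of 34.0, against 56.2 to 89.3 CPM, with a median of 72.2. The fractions did not overlap, and its level was 2.22-fold lower in the immunoprecipitate (-1.15 ± 0.09, adjusted p = 8.42e-10).

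Scn3b, at chr9:40269217-40291618, was one of the 2 higher channel genes. It ranged from 51.7 to 89.5 CPM in the immunoprecipitates, with a median of 72.4, against 40.8 to 74.7 CPM in the supernatants, with a median of 59.2. The fractions overlapped and 10 of 13 pools were higher (0.24 ± 0.08, adjusted p = 0.0186). In libraries numbered 1 to 10 the value was 0.05 (adjusted p = 0.752), while in libraries numbered 11 to 30 it was 0.31 (adjusted p = 0.0151). Scn4b had -0.26 (adjusted p = 0.277) and did not pass. It was at -0.96 and passed in libraries numbered 1 to 10 (adjusted p = 0.000993), was at 0.02 in those numbered 11 to 30 (adjusted p = 0.975), and also passed without immunoprecipitate replicate 2 of intact males.

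**Figure D2:**
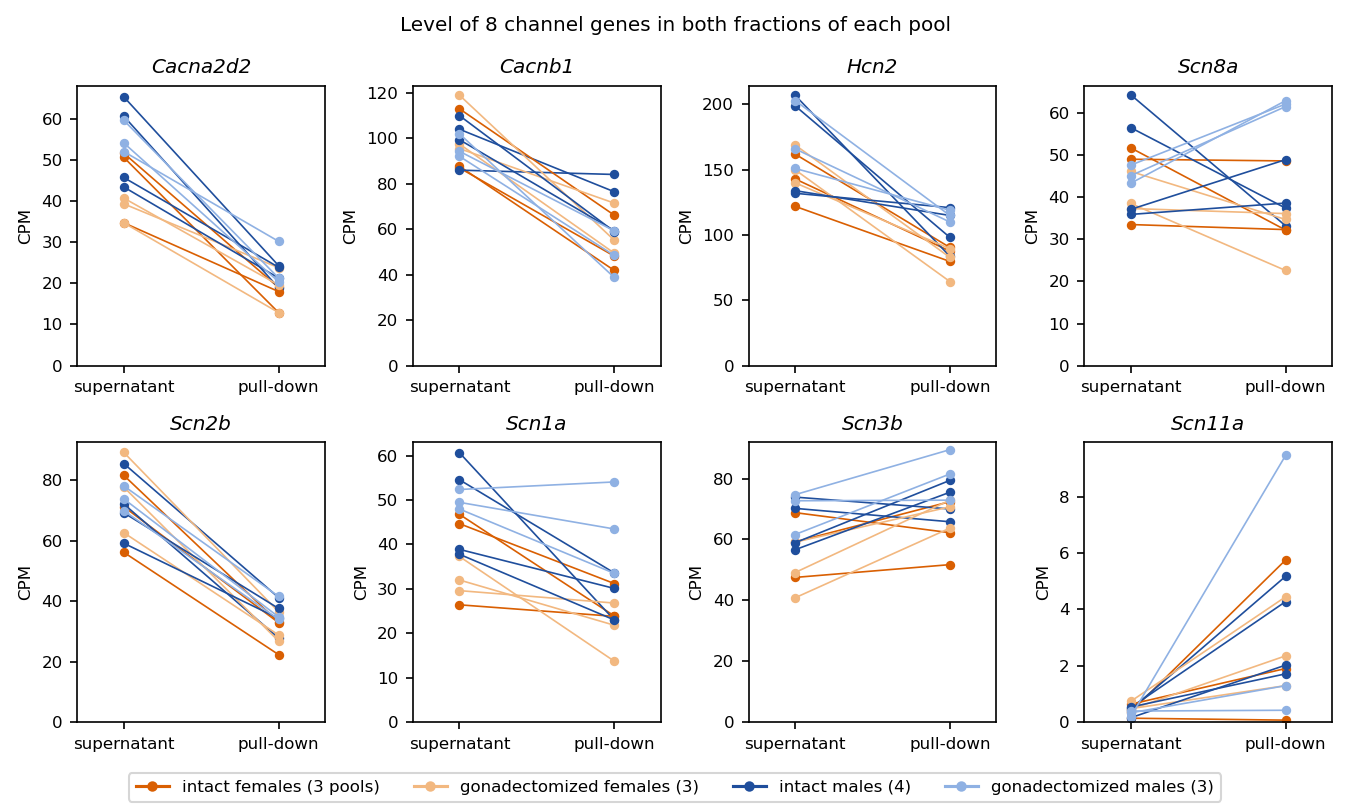
CPM (y axis) of 8 channel genes in the supernatant and the immunoprecipitate (pull-down) of each pool, joined by a line and coloured by condition. Cacna2d2, Cacnb1, Hcn2 and Scn2b were lower in every pool, Scn3b was higher in 10 of 13 pools and Scn11a in 12 of 13.

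Of 8 tested pore-forming Nav genes 1 was higher and 2 were lower. Scn11a encodes a channel of persistent sodium current best known from pain-sensing neurons, and lies beside Scn10a, at chr9:119753759-119825456. It ranged from 0.0631 to 9.48 CPM in the immunoprecipitates, with a median of 2.02, and from 0.132 to 0.732 CPM in the supernatants, with a median of 0.441. In 11 immunoprecipitates it lay above every supernatant, and 12 of 13 pools were higher. The exception was intact female replicate 1, whose immunoprecipitate had the lowest value of all 26 libraries, and gonadectomized male replicate 1 was also low at 0.415 CPM. The log2 fold change was 2.92 ± 0.52, a 7.57-fold difference (adjusted p = 7.37e-05), and 2.23 to 3.47 in the alternative settings. By level Scn11a stayed a small part of the pore Nav sum, which leaves out Scn2a1, at 3.96 ± 2.82% against 0.491%.

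Scn1a, a main sodium channel of fast-firing interneurons, had a median of 26.8 CPM, from 13.7 to 54.1, against 44.7, from 26.4 to 60.7. The fractions overlapped and 1 pool was higher in the immunoprecipitate (-0.56 ± 0.12, adjusted p = 0.000674). With the trend over transcript length removed it was at -0.31 (adjusted p = 0.0481). Of the 9 pore Nav members Scn1a had the highest level per length in both fractions, at 3.45 ± 1.22 against 5.04 ± 1.21 CPM per kb. These members leave out Scn2a1, whose mean was 48.0 CPM against 58.1, above the 29.4 and 43.0 CPM of Scn1a. The level of Scn2a1 per length was not computed. In the immunoprecipitates Scn8a, the channel of the axon initial segment and nodes, lay beside Scn1a at 3.44 ± 1.07 CPM per kb, a gap far inside the spread. Scn1a made up 26.4% of the pore Nav level without Scn2a1 in the immunoprecipitates against 33.4% in the supernatants, and Scn8a 26.3% against 24.5%.

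Scn10a, like Scn11a a channel of sensory neurons, was at the edge of detection. It was detected in 3 of 13 immunoprecipitates, at 1.27 and 0.0841 CPM in intact male replicates 1 and 2 and 0.773 CPM in intact female replicate 2, and in 13 of 13 supernatants, from 0.0221 to 0.535 CPM. It was called lower (adjusted p = 0.0294). With a floor of 3 counts over the group in place of 0, it was 7.39-fold lower in gonadectomized females and 12.2-fold lower in gonadectomized males. This floor takes no account of the spread between pools. In intact mice the mean was higher in the immunoprecipitates, at 0.258 against 0.155 CPM in females and 0.338 against 0.241 CPM in males. In libraries numbered 1 to 10 Scn10a was not called (adjusted p = 0.38). The pore genes Scn3a (-0.34, adjusted p = 0.0765), Scn7a (-0.22), Scn8a (-0.12) and Scn9a (0.03) did not pass.

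Among the HCN channels Hcn2, at chr10:79716634-79736108, had 30.3 ± 5.56 CPM per kb in the immunoprecipitates and 50.0 ± 8.81 in the supernatants. It ranged from 64.4 to 121 CPM, with a median of 90.5, against 122 to 207 CPM, with a median of 151, so the fractions did not overlap (-0.74 ± 0.09, adjusted p = 3.44e-07).

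Hcn3 and Hcn4 had -0.15 and 0.02 and did not pass, and 711 bases of Hcn3 exons overlap the neighbouring gene Pklr.

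**Figure D3:**
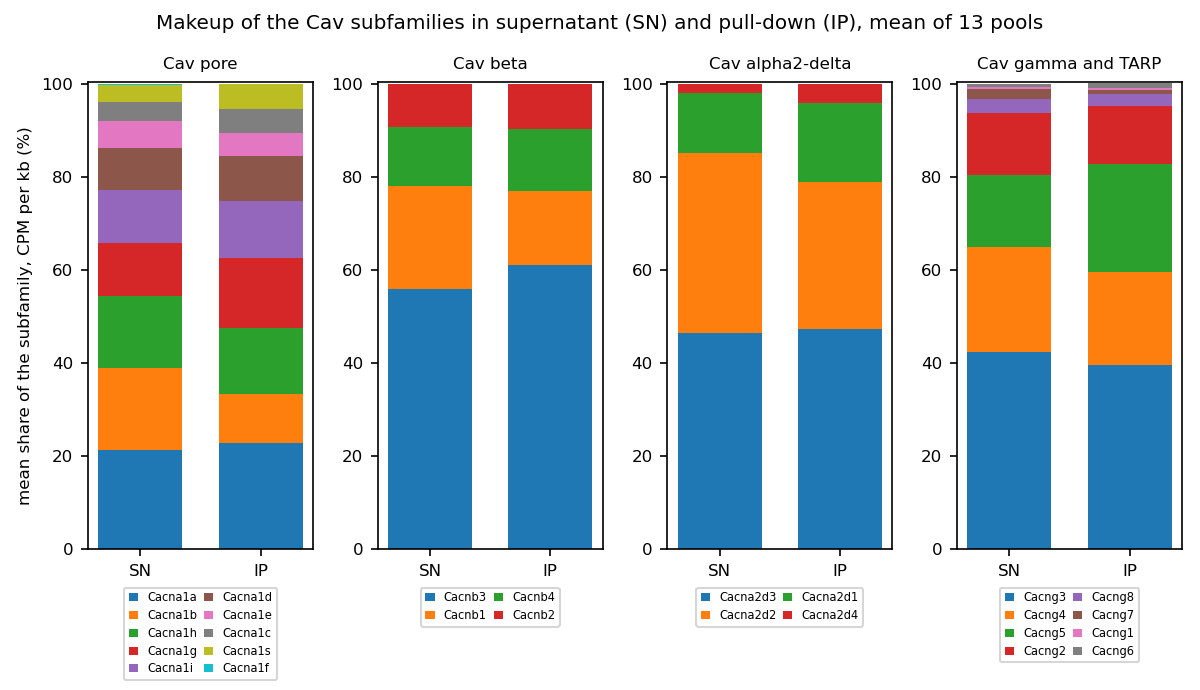
Mean share (y axis, percent) of each Cav member in the summed CPM per kb of its subfamily, in supernatants (SN) and immunoprecipitates (IP), each a mean of 13 pools. Cacna1b goes from 17.6% to 10.5% of the pore Cav level.

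In 5 members, among them Cacna2d2, Cacnb1, Scn2b and Hcn2, every immunoprecipitate lay below every supernatant, 12.2% of the tested members against 2.40% of all tested genes. In 8 members, the same 5 with Cacna2d1, Cacna2d3 and Cacng3, the immunoprecipitate was lower in each pool, 19.5% against 7.77% of all tested genes. No member had every immunoprecipitate above every supernatant, against 2.15% of all tested genes, and none was higher in all pools, against 6.82%.

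Transcript length moved with these calls. The members' median exon length was 5931 bases against 3194 over all tested genes with a length, and 24 of the 41 tested members fell among the longest genes when genes were ranked by length and cut into 5 equal classes. In that longest class 33.6% of genes were lower and 12.3% higher in the immunoprecipitate, and in the shortest class 8.78% and 39.9%. With the trend over length removed, 3 members were higher and 14 lower, against 23.1% and 16.7% of all genes. The median was then -0.06 over members and 0.01 over all genes. Cacna2d2, Cacnb1, Scn2b and Hcn2 were then at -1.02, -0.64, -0.95 and -0.64. The part of the glial, endothelial, mural and neuronal markers in the calls was not tested.

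Within each condition the same comparison called fewer members. In intact females 0 were higher and 10 lower, against 10.2% and 7.77% of all genes. In gonadectomized females 0 were higher and 6 lower, against 2.97% and 3.31%. In intact males 1 was higher and 13 lower, against 14.6% and 11.2%. In gonadectomized males 1 was higher and 5 lower, against 5.93% and 4.73%. Leaving out replicate 0 of intact females, as supernatant or as immunoprecipitate, brought the 10 to 6, and leaving out supernatant replicate 0 of intact males brought the 13 to 8. The numbers of pools differ between conditions, so these counts are not a comparison of strength.

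In all, 5 members were called lower in each of the 4 conditions, among them Cacna2d2, Cacnb1, Scn2b and Hcn2, 12.2% of tested members against 1.72% of all tested genes. No member was called higher in each of the 4, against 1.80% of all tested genes. In intact females, gonadectomized females, intact males and gonadectomized males, Cacna2d2 was at -1.45, -1.03, -1.28 and -1.20. Scn2b was at -1.24, -1.32, -1.02 and -1.01 in the same order. Cacnb1 was at -0.88, -0.82, -0.52 and -0.98 and Hcn2 at -0.73, -0.95, -0.69 and -0.59. No test of a difference between conditions called any of these 5.

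Scn11a was at 2.77, 2.28, 3.01 and 3.63 in that order, and passed in intact males (adjusted p = 0.0187) and gonadectomized males (adjusted p = 0.0344) but not in females. In gonadectomized males the call was lost with the pool as a block, without any 1 of the 3 supernatants and without immunoprecipitate replicate 2. In intact males it was lost without supernatant replicate 2. None of the 4 tests of a difference between conditions in this enrichment called a member, so the sexes were not shown to differ. Cacna1b was called lower in both intact groups, at -1.52 in females and -1.11 in males. Cacna2d3 (-1.01 and -1.20) and Cacng4 (-0.64 and -0.49) were lower in both as well. Among the genes called lower in 1 condition were Cacng2 in gonadectomized females (-0.75), and Cacna2d1 (-1.04), Scn1a (-0.81), Cacng7 (-1.62) and Scn3a (-0.83) in intact males. The differences of enrichment called none of these genes. They called 0.00598% of all genes between intact males and females and 0% in the others. Whether a call belongs to 1 condition was therefore not settled.

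The study also compared the sexes and the effect of removing the gonads, which takes away gonadal steroid feedback on GnRH neurons. In the 8 comparisons of sex and gonadectomy within a fraction, 0 channel genes passed. Of all genes, 0.0248% passed between intact immunoprecipitates of the sexes, 0.0186% between gonadectomized ones and 0% with gonadectomy. In the supernatants 0.0428% passed between the sexes, in intact and in gonadectomized mice alike, 0.0122% with gonadectomy of females and 0% with that of males. At an unadjusted p under 0.05 there were 4, 4, 4 and 5 members in the immunoprecipitates, for gonadectomy of females, gonadectomy of males, males against females intact and the same gonadectomized, of 40 tested, where 3.66%, 9.34%, 4.11% and 8.59% of all genes were under it. In the supernatants there were 2, 0, 0 and 10 of 41 in the same order, against 7.31%, 2.73%, 3.71% and 21.1% of all genes. In the 4 tests of a difference of enrichment 0 passed as well, against 0.00598% of all genes between intact males and females and 0% in the others, with 4, 3, 2 and 4 of 41 members at an unadjusted p under 0.05 in the order above, against 7.47%, 8.16%, 4.43% and 5.27% of all genes. By DESeq2 the count was 0 in the 8 comparisons and 1 in the differences, and by limma voom it was 0 in all 12.

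**Figure D4:**
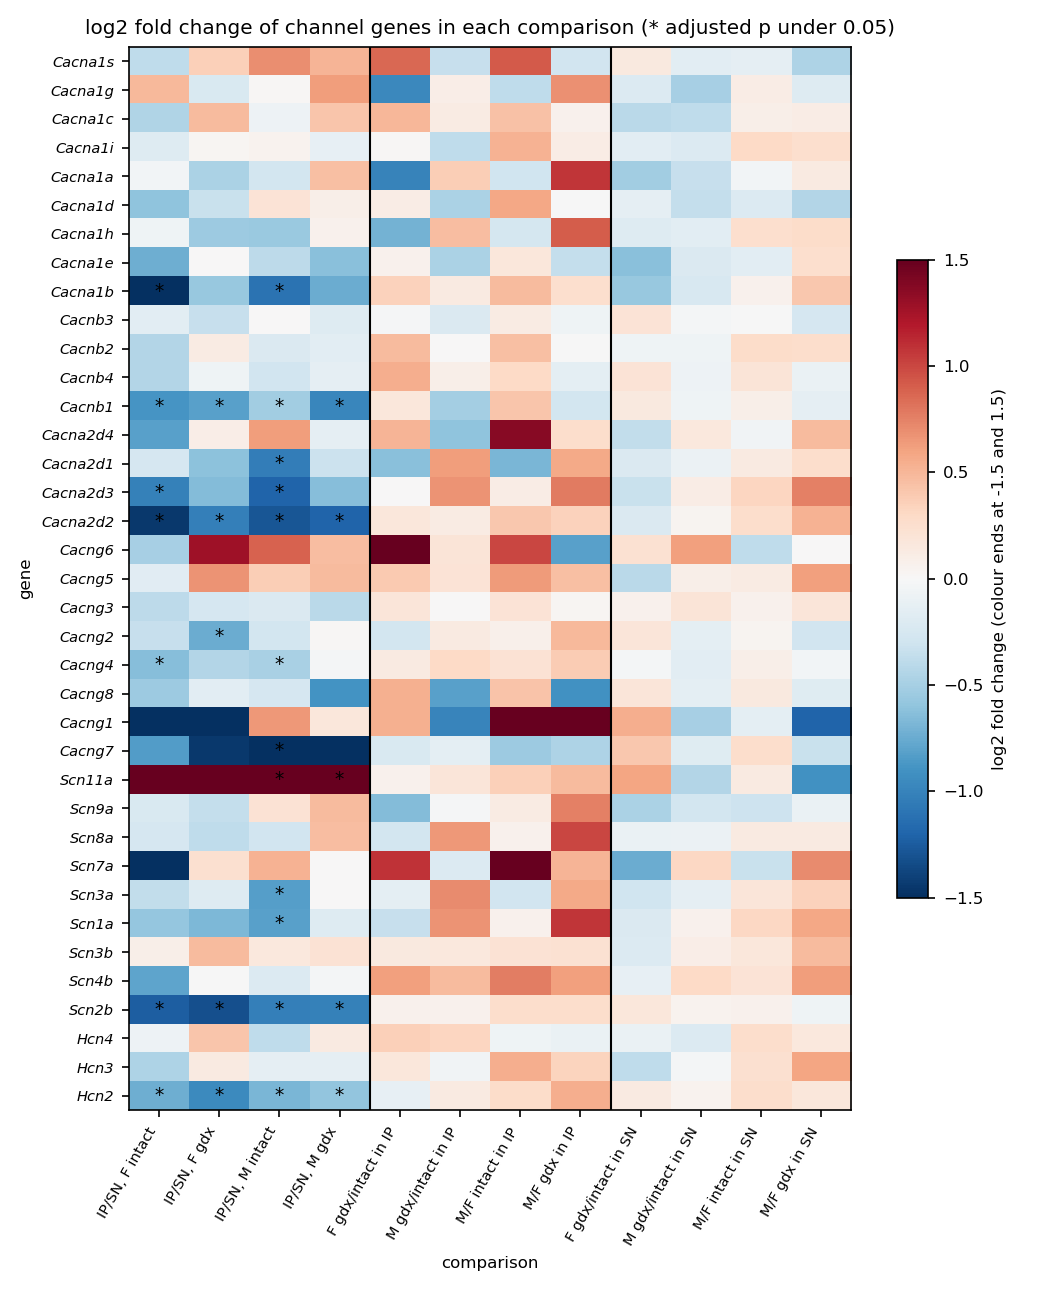
Log2 fold change (colour) of channel genes (rows) in the comparison of fractions within each condition (IP/SN) and in the comparisons of gonadectomy (gdx/intact) and sex (M/F) within the immunoprecipitates and the supernatants. Asterisks mark adjusted p under 0.05 and are found only in the 4 columns of fractions; Scn10a is left out.

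Scn8a and Scn1a had the lowest p between gonadectomized males and females in the immunoprecipitates. Scn8a was at 62.1, 61.5 and 62.9 CPM in gonadectomized males and 34.7, 22.6 and 36.1 CPM in gonadectomized females. Scn1a was at 54.1, 33.5 and 43.5 CPM against 21.8, 26.8 and 13.7 CPM. Neither pair of groups overlapped, but the 2 genes were picked by their low p, so this adds no support. The share of all genes without overlap is not given here. The log2 differences were 1.00 ± 0.24 and 1.07 ± 0.29, both with adjusted p = 0.551. The same 2 genes had the lowest p between gonadectomized and intact males, at 0.65 and 0.67 (adjusted p = 0.525). In the supernatants of gonadectomized mice Scn8a differed between the sexes by 0.14. Scn1a was also higher in males there, at 50.0 ± 2.2 against 33.0 ± 3.9 CPM (SD, n = 3 each). Its log2 difference there was 0.58 ± 0.21 and did not pass (adjusted p = 0.133). Its difference of enrichment between the sexes was 0.47 ± 0.36 (adjusted p = 1.00).

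**Figure D5:**
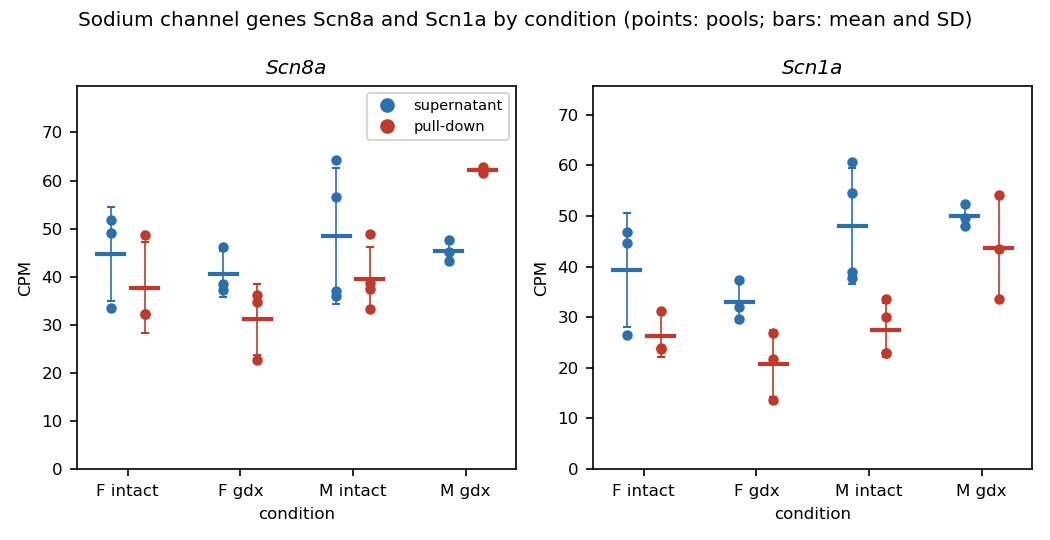
CPM (y axis) of Scn8a and Scn1a in each pool by condition, supernatant beside immunoprecipitate (pull-down), with bars for the mean and SD (3 or 4 pools). Scn8a sits between 61.5 and 62.9 CPM in the 3 immunoprecipitates of gonadectomized males and at 36.1 CPM or less in those of gonadectomized females.

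Other members among those of lowest p in their comparison did not pass either. In the immunoprecipitates they included Cacna1a at -1.0 for gonadectomy of females (adjusted p = 0.994) and Cacna2d1 at -0.69 for intact males against females (adjusted p = 0.991). In the supernatants they included Scn7a at -0.74 for gonadectomy of females (adjusted p = 0.653), and Cacna1g at -0.50 and Cacng3 at 0.19 for gonadectomy of males (adjusted p = 1.00). Between intact male and female supernatants Cacna2d2 was at 0.26 (adjusted p = 0.861). In that comparison and in gonadectomy of males, 0 of 41 members in the supernatants had an unadjusted p under 0.05.

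Gonadectomized male and female supernatants differed in Cacna2d3 by 0.76 and in Cacna2d2 by 0.52 (adjusted p = 0.118). That comparison had 10 of 41 members at an unadjusted p under 0.05, 9 of them higher in males, where 21.1% of all genes were under it. Calls appeared there only in some settings. A term for the library numbering called 7 members, libraries 11 to 30 alone 3 and the fit without supernatant replicate 2 of gonadectomized females 4. The share of all genes called in these settings is not given here, so these counts are not read as a result about channel genes. Cacna2d2 and Scn1a were higher in males with the numbering term and in libraries 11 to 30, while Cacng5 and Scn3b were higher in males with the numbering term and without that replicate.

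Genes whose products bind or regulate these channels were read from a list of 44, of which 41 were in the table and tested. In the immunoprecipitates 8 of the 41 were higher and 18 lower, with a median of -0.22. Of all tested genes 21.3% were higher and 21.6% lower, with a median of -0.06. Values of this list with the trend over transcript length removed are not given here. Fgf13, an intracellular growth-factor homologue that binds sodium channels, was higher in 13 of 13 pools, with a median of 146 CPM against 84.4 (0.83 ± 0.11, adjusted p = 1.62e-06). Cntnap2, a cell-adhesion protein of myelinated axons, was at 0.32, and the small GTPases Rrad and Gem, which inhibit Cav channels through the beta subunits, were higher at 0.56 and 0.60. The higher genes also included Gsg1l, an AMPA receptor partner. Of genes that encode calmodulin, Calm2 was higher (0.28, adjusted p = 0.000605) and Calm3 lower (-0.41, adjusted p = 0.000132). Of the sodium leak channel complex Fam155a was higher (0.41, adjusted p = 0.00106), while Nalcn, Unc79 and Unc80 were at 0.02, -0.16 and 0.03 and did not pass.

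Pex5l, which encodes the HCN partner TRIP8b, was lower in 13 of 13 pools, with a median of 46.3 CPM against 90.4 (-1.06 ± 0.13, adjusted p = 8.36e-07). The presynaptic scaffolds Rims1 and Rimbp2, which tether Cav channels at release sites, were lower, at -1.26 and -1.24. The calcium sensor Cabp1 was at -0.81 and the kinase subunit Camk2a at -0.99, both lower in all pools. Kcne2, a small accessory subunit of potassium and HCN channels, was called lower and was detected in 2 of 13 immunoprecipitates and 13 supernatants, with a median of 0.186 CPM in the latter. Scn2a1, the sodium channel under its older symbol, was lower at -0.31 ± 0.10 (adjusted p = 0.0200), with a median of 44.9 CPM against 58.5.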

How the data were processed

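RNA of immunoprecipitates and supernatants of 13 pools was sequenced. A SMART-Seq low-input kit, which leaves strand unmarked, made the cDNA for paired-end sequencing, per the labels' protocols. The authors deposited estimated counts per gene, of which 1.46% are not whole. Per the submitters' processing notes, the build was mm10 and the tools were Cufflinks with Cuffdiff 2.1.1, Bowtie2 2.1.0, TopHat2 2.0.9 and FastQC. How multi-mapped reads were counted, and on which annotation, is not given in the sources used here. Members that overlap another gene or share sequence with a relative are therefore uncertain.

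Estimated counts were rounded to whole numbers. Tests used edgeR 4.0.16 in R 4.3.3 with TMM factors, filterByExpr (minimum count 10, minimum total 15), the two-sided quasi-likelihood test and Benjamini-Hochberg adjustment over all tested genes, called at adjusted p under 0.05. The comparison of fractions and the differences of enrichment were fitted on 26 libraries in 8 groups with no pool block. Sex and gonadectomy were compared within a fraction (13 libraries). A positive value means higher in the immunoprecipitate, after gonadectomy or in males. The procedure was tested on simulated data, and the outcome is not given here. Those data had no difference in spread between fractions, no trend over transcript length and no pairing of pools. CPM per kb used exon lengths and positions of GENCODE M21. Promoters are from RefSeq.

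The common biological coefficient of variation was 0.577 in the immunoprecipitates and 0.182 in the supernatants. Replicates of a group differed by a chi-square of at least 4.6 per degree of freedom, so no library was counted as a repeat. The reads carry no molecular identifiers, so read counts are not counts of independent molecules.

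The members, lists and tests were chosen with earlier results of these data known. Some members and partner genes are not reported here by name, and the counts include them. Values in each fraction are given for members called over all conditions and for the most abundant member per length of each subfamily. In the other comparisons the named genes are called members and, in those without a call, members among the 2 of lowest p. Between the sexes in gonadectomized mice, Scn8a, Scn1a, Cacng5 and Scn3b were also named for the supernatants or the difference of enrichment. They were chosen after results in the immunoprecipitates or in alternative settings were seen. Of the partner list, the named genes are called ones with a log2 fold change of 0.8 or more in size, and others named after their values were seen. Alternatives were DESeq2 1.42.0, its size factors, limma 3.58.1 voom, no filter, a block for the pool, a length trend, the library numbering, and leaving out each library.

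The 2 fractions of a pool are paired by the labels, since they come from the same mice. Deviations from the group means correlated by 0.0143 to 0.17 over the 13 pools. Equal replicate numbers in different conditions name different mice. Their correlations ran from -0.0381 to 0.168 in the immunoprecipitates and from -0.106 to 0.339 in the supernatants. Between intact male and female supernatants all 3 pairs were over 0.1, at 0.297 to 0.339. In both of these groups the replicate numbers rise with the library numbers. Correlations of pools with unlike numbers are not given here. The values therefore cannot show whether equal numbers pair the pools.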

Additional observations from a re-analysis of the deposited data

Results flagged for a closer look

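Scn10a in the immunoprecipitate of intact male replicate 1 was at 1.27 CPM, while the other 3 immunoprecipitates of intact males were at 0.0841 CPM or less. The gap to the nearest of the others was 0.934 of the group's range, above Dixon's critical value for 4 samples. This was the 1 flag among 82 groups of 4 samples, where chance flags about 1 in 20 groups.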

How the results depend on the processing

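Among the members called over all conditions, Cacna1b, Cacna2d1, Cacna2d2, Cacnb1, Scn11a, Scn1a, Scn2b and Hcn2 passed in every one of 9 alternative settings and in all 26 fits without 1 library. Their sizes moved by over 1.5 times in 3 of them: Cacna1b in either set of library numbers, and Cacna2d1 and Scn1a with the length trend removed, as given above. In libraries 1 to 10 Cacna1e (-0.79), Cacnb2 (-0.56), Cacnb4 (-0.45), Scn3a (-0.84), Scn4b (-0.96) and Scn8a (-0.49) passed as lower. The counts of members higher and lower were 3 and 16 with DESeq2, 3 and 15 with its size factors, 2 and 18 with limma voom, 2 and 16 without the filter, 3 and 14 with the length trend removed, 3 and 12 in libraries 11 to 30 and 1 and 19 in libraries 1 to 10, the last setting chosen after seeing the data. In libraries 11 to 30 alone 2353 of all genes were higher and 2253 lower. Without each library in turn the members were 2 to 3 and 15 to 20, and all genes called were 3307 to 3895 and 3318 to 4174.

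With the replicate block (the pool), 3 members were higher and 20 lower over all conditions, and 0 were higher in gonadectomized males. With the length trend and the block together they were 4 and 15. The replicate number as a block left every comparison of sex or gonadectomy within a fraction at 0. Added to the length trend, the block also raised the members higher from 1 to 3 in gonadectomized females and from 2 to 4 in intact males, and it moved no other count of members of 2 or more by over 1.5 times.

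In intact females the members called lower were 0 in libraries 11 to 30, where 1 pool is left, and 6 with the length trend removed, with or without the block, and the 0 higher became 1 with DESeq2. In gonadectomized females the 0 higher became 1 with DESeq2, 2 in libraries 11 to 30, 1 with the length trend removed and 3 with the block as well. In intact males the 1 higher became 0 in libraries 11 to 30 and in libraries 1 to 10, 2 with the length trend removed and 4 with the block as well, and the 13 lower became 3, in libraries 11 to 30, 8 and 7. In gonadectomized males the 1 higher became 0 with limma voom, with the block, and with the block and the length trend. The difference of enrichment by gonadectomy of females had 1 call with DESeq2. Gonadectomized male against female supernatants had 3 in libraries 11 to 30 and 7 with the numbering term. The cause of these changes was not tested, and the shares of all genes called in these fits are not given here.

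Without each library in turn, the range was 0 to 2 higher (2 without immunoprecipitate replicate 2) and 6 to 11 lower in intact females, 0 to 1 and 4 to 6 in gonadectomized females, 0 to 1 and 8 to 13 in intact males, 0 to 1 and 4 to 5 in gonadectomized males, 0 to 1 for the difference by gonadectomy of females, and 0 to 4 for gonadectomized male against female supernatants.

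The members given here as changing sign had small values or few counts, and Cacnb3 was the one called member among them, at 0.06 in libraries 1 to 10. In libraries 11 to 30 the reversed values were Cacna1a 0.03, Cacna2d4 0.29, Hcn3 0.25, Scn4b 0.02 and Scn8a 0.07. With the length trend removed they were Cacna1a 0.16, Cacna1d 0.11, Cacna1i 0.22, Cacna2d4 0.15, Cacnb2 0.01, Hcn3 0.00, Scn7a 0.06 and Scn8a 0.14, and with the block as well Cacna1a 0.14, Cacna1d 0.01, Cacna1i 0.11, Cacng6 -0.56 and Scn8a 0.13. With the block alone they were Cacng6 -0.53 and Hcn4 -0.07, and with limma voom Cacng6 -0.91 and Hcn4 -0.07. In libraries 1 to 10 they were Cacna1c -0.22, Cacna1i 0.06, Cacng6 -3.03, Hcn4 -0.43 and Scn9a -0.19. Without 1 library Cacna1c reversed to -0.01 at its lowest, and over all these fits Cacna1i ran from -0.29 to 0.06, Cacna2d4 from -0.85 to 0.10, Cacng6 from -1.14 to 0.68, Hcn4 from -0.22 to 0.13 and Scn9a from -0.06 to 0.08. With the longest transcript as length, in place of all exons, the share of Cacna1b was 10.4% against 17.5%, an alternative chosen after seeing the data. Counts of a few reads limit Scn10a, Cacng1 and Cacng6.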
